A study of Mus musculus with 18 samples.

Results

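The 10 genes described here encode the exchangeable subunits of the BAF chromatin remodelling complex: *Actl6a* and *Actl6b*, *Phf10*, *Dpf2*, *Dpf1* and *Dpf3*, *Ss18* and *Ss18l1*, and *Smarca4* and *Smarca2*. They were taken by symbol from the 55335 genes of the deposited tables and followed from radial glia through intermediate progenitors to neurons, and across genotypes. Nuclear RNA was sequenced after combinatorial barcoding, a method that tags the RNA of fixed nuclei over successive rounds of splitting and pooling. Forebrain came from 9 mouse embryos at embryonic day 14 (E14) of the MYT1L S710fsX strain, which carries a frameshift in *Myt1l*, the gene of a zinc finger transcription factor of neurons: 3 wild type (WT), 3 heterozygous (Het) and 3 homozygous (KO). Each embryo was measured in 2 runs, which were summed, so that the embryo was the replicate. Titles gave the genotype, and in run 1 a separate genotype tag read WT for all 9 libraries, against the titles, which were followed.

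BAF complexes use ATP to move and evict nucleosomes, and several of their positions can be filled by alternative proteins. As neural progenitors leave the cell cycle, the actin-related, PHD finger and SS18-type positions are known to pass from progenitor subunits (*Actl6a*, *Phf10* and *Dpf2*, *Ss18*) to neuronal ones (*Actl6b*, *Dpf1* and *Dpf3*, *Ss18l1*), while *Smarca4* and *Smarca2* are alternative ATPases. In this scheme the repressor REST holds down microRNAs of the miR-9 and miR-124 families in progenitors, and those microRNAs act on *Actl6a* mRNA once REST is gone.

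After filtering, 195758 of 261143 nuclear barcodes were kept, 14927 to 26155 per embryo, from libraries of 25300676 to 93334845 unique molecular identifiers (UMIs). Clusters were named from marker genes that did not include the BAF genes, and 4 clusters with 21668 nuclei were left unnamed. The excitatory lineage comprised 29414 radial glia-like, 22689 excitatory intermediate progenitor-like and 55417 excitatory neuron-like nuclei, and beside it stood 10047 inhibitory progenitor-like, 53438 inhibitory neuron-like and 2062 Cajal-Retzius-like nuclei. The defining markers were present: *Pax6* at 287 ± 14.2 CPM (counts scaled to a total of 1e6; mean ± SD over 9 embryos) in radial glia-like, *Eomes* at 696 ± 40.9 in intermediate progenitor-like, *Neurod2* at 416 ± 34.9 in excitatory neuron-like and *Gad2* at 1235 ± 84.7 in inhibitory neuron-like nuclei. CPM are shares of each class's own total per embryo, so a level cannot tell RNA per nucleus apart from the amount of other RNA, and levels are compared between classes for the same gene only. Libraries of the same run shared 972 barcodes, and between runs 311 were shared within an embryo and 2457 between different embryos, and these nuclei were kept.

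The 10 subunit genes fell into a group that rose along the excitatory lineage and a group that fell. From radial glia-like to excitatory neuron-like nuclei, 4 genes rose by more than 1 on the log2(CPM + 1) scale in each of the 9 embryos (*Actl6b*, *Dpf3*, *Dpf1* and *Smarca2*), as did 10.2% of the 12538 genes compared, and 1 gene fell by as much in each of them (*Ss18*), as did 16.8%. *Ss18l1* and *Smarca4* rose by less in all 9, and *Actl6a*, *Phf10* and *Dpf2* fell by less in all 9. The median step of the 10 genes was 0.76, against −0.35 over all genes compared. *Dpf2* fell by about that median of all genes, so its place in the falling group depends on the scaling, as given below. Because the genes were proposed for this pattern and the classes were drawn from the same nuclei, the steps are a description without a test. Scaling by the trimmed mean of M-values (TMM) moved the median of all genes by 0.33 for this step, by 0.06 from radial glia-like to intermediate progenitor-like nuclei and by 0.28 from there to excitatory neuron-like nuclei.

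**Figure D1:**
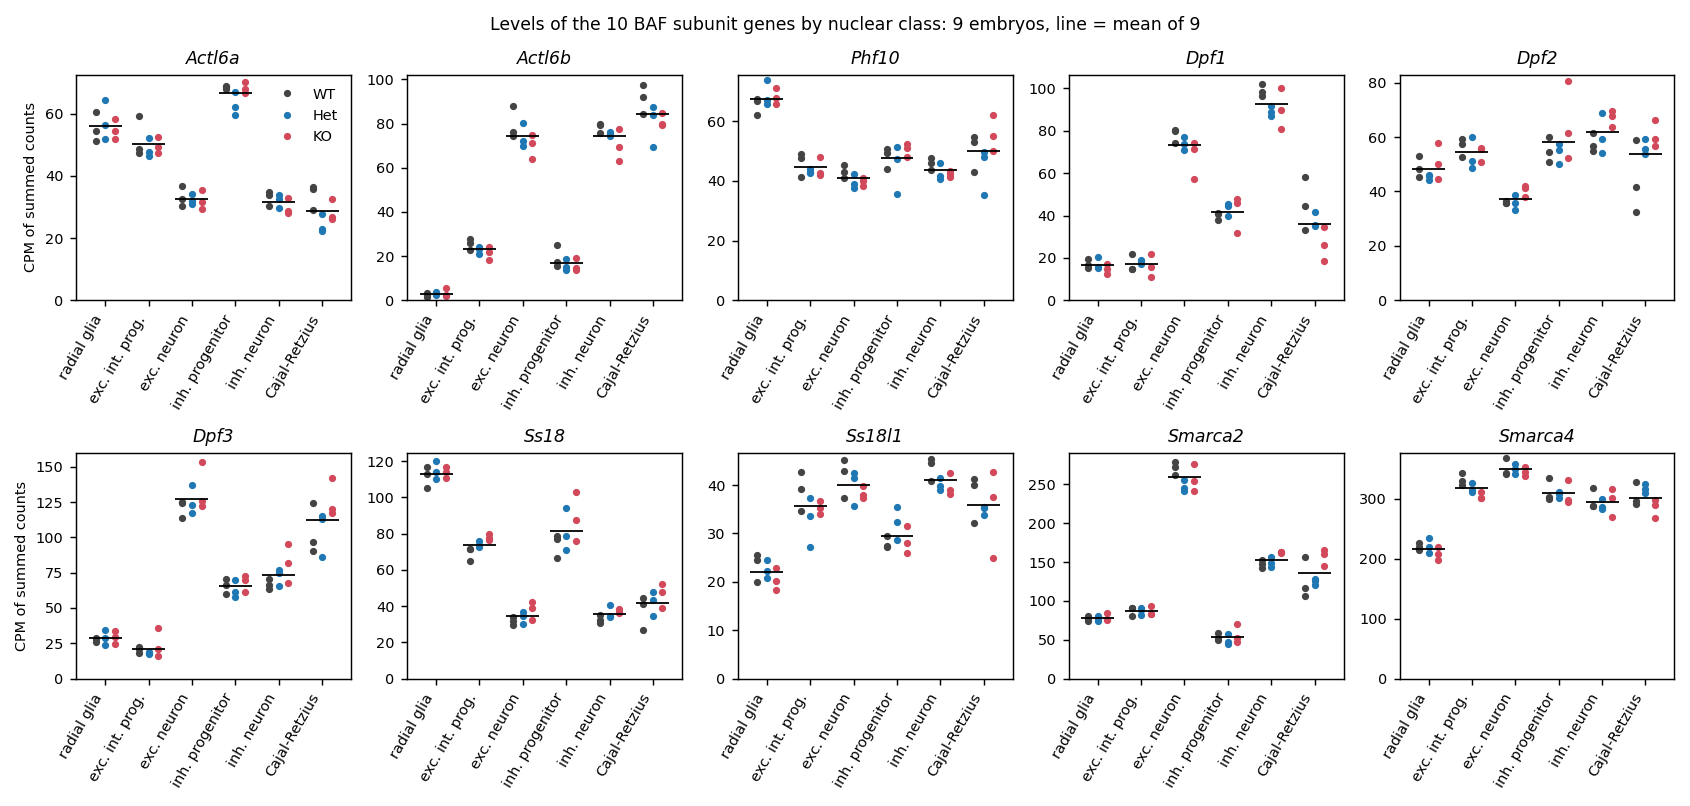
Levels of the 10 genes (CPM, linear axes from 0, a scale for each gene) in 6 nuclear classes, with a point for each of the 9 embryos coloured by genotype and a bar for the mean. *Actl6b* climbs from 2.93 CPM in radial glia-like to 74.5 CPM in excitatory neuron-like nuclei, *Ss18* declines from 113 to 34.4 CPM, and the genotypes overlap in most classes.

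The actin-related position showed the widest exchange. *Actl6b*, the neuronal actin-related subunit (chromosome 5, 137553517 to 137569582, plus strand, GRCm38), lay between 1.52 and 5.39 CPM in radial glia-like nuclei (median 2.49), between 18.2 and 27.7 in intermediate progenitor-like nuclei (median 23.2) and between 63.8 and 87.9 in excitatory neuron-like nuclei (median 74.2). No value of a later class overlapped an earlier class. The step from radial glia-like to excitatory neuron-like nuclei was 4.31 ± 0.39 (SD, n = 9), a 19.8-fold rise, of which 2.66 ± 0.35 was reached in intermediate progenitor-like nuclei. Of the 22689 nuclei of that class, 13900 were in the cluster with its highest *Actl6b*, as given below. Among the 10 genes, *Actl6b* alone passed a log2 step of 1 in all 9 embryos from radial glia-like to intermediate progenitor-like nuclei, a rise shown by 4.90% of all genes compared there, and 0 of the 10 fell by as much (8.05% did). From intermediate progenitor-like to excitatory neuron-like nuclei 4 rose past that limit, *Actl6b*, *Dpf1*, *Dpf3* and *Smarca2* (6.67% of all genes did), and 0 fell past it in every embryo (7.72% did).

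Its level in radial glia-like nuclei was 3.94 ± 1.54% of that in excitatory neuron-like nuclei. For *Neurod6*, *Snap25* and *Stmn2*, neuronal genes that radial glia should lack, the same share was 8.50 ± 3.47%, 3.50 ± 0.772% and 5.51 ± 1.20%. *Actl6b* in radial glia-like nuclei was therefore within the range of background RNA, and was not read as expression, so that the fold given above rests on a denominator at background.

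*Actl6a*, the progenitor actin-related subunit (chromosome 3, 32706298 to 32726973, plus strand), changed by less. It ranged from 51.3 to 64.3 CPM in radial glia-like nuclei (median 54.5), from 46.4 to 59.4 in intermediate progenitor-like nuclei (median 48.6) and from 29.5 to 36.6 in excitatory neuron-like nuclei (median 32.0). Radial glia-like and intermediate progenitor-like values overlapped, whereas all neuron-like values lay below both. The step to excitatory neuron-like nuclei was −0.76 ± 0.06, or −0.43 ± 0.06 with TMM scaling. Taken within each embryo, *Actl6b* gained 5.07 ± 0.36 on the log2 scale relative to *Actl6a*, a value that again rests on *Actl6b* at background in radial glia-like nuclei.

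The microRNA step of the known scheme can be read on the reference sequence, shown here because the seed is what links the microRNA to *Actl6a*. The mature miR-9-3p given by RefSeq for GRCm38.p6, with the seed (bases 2 to 8) in capitals, is the same for the loci *Mir9-1*, *Mir9-2* and *Mir9-3* on chromosomes 3, 13 and 7. Below it stand the stretches of the *Actl6a* and *Smarca2* 3′ untranslated regions (GENCODE annotation, GRCm38) that hold the reverse complement of the seed, in capitals.
mmu-miR-9-3p: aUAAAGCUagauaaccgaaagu
Actl6a, chr3:32726629-32726657, plus strand: tcaacgtctgtAGCTTTAgtacactcagg
Smarca2, chr19:26777491-26777519, plus strand: catctagaactAGCTTTAgggtagtgcca
The *Actl6a* match begins at base 38 of a 371-base untranslated region, and the *Smarca2* match at base 132 in 8 of its annotated transcripts. Of the 10 subunit genes, 2 held AGCTTTA on the transcribed strand, and so did 11.8% of 20997 annotated genes. A match is a description of letters, and these data hold no mature microRNA. The levels of these genes went opposite ways, *Actl6a* falling and *Smarca2* rising along the lineage.

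At the PHD finger position, the neuronal subunits *Dpf1* (chromosome 7) and *Dpf3* (chromosome 12) rose to about the same extent but along different paths. *Dpf1* ran from 12.5 to 20.5 CPM in radial glia-like nuclei (median 15.7), from 10.8 to 21.7 in intermediate progenitor-like nuclei (median 17.0) and from 57.4 to 80.3 in excitatory neuron-like nuclei (median 74.3). The first of these classes overlapped the second almost wholly, and the neuron-like values stood apart. The step to excitatory neuron-like nuclei was 2.10 ± 0.15, with 2.06 ± 0.24 of it after the intermediate progenitor-like stage.

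*Dpf3* was lower in intermediate progenitor-like nuclei than in radial glia-like nuclei in 8 of 9 embryos (16.3 to 36.1 against 23.4 to 34.2 CPM). The exception was KO 1, at 36.1 against 29.3 CPM. In excitatory neuron-like nuclei *Dpf3* lay between 114 and 153 CPM, above every progenitor value, with a step of 2.12 ± 0.26 from radial glia-like nuclei and 2.57 ± 0.34 from intermediate progenitor-like nuclei.

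The progenitor PHD finger subunits showed small steps. *Phf10* (chromosome 17) was highest in radial glia-like nuclei, at 67.5 ± 3.34 CPM, and had dropped to 44.5 ± 2.99 CPM in intermediate progenitor-like and 40.8 ± 2.45 CPM in excitatory neuron-like nuclei. Its step from radial glia-like to excitatory neuron-like nuclei was −0.71 ± 0.11, or −0.38 ± 0.12 with TMM scaling. *Dpf2* (chromosome 19), a subunit found in many tissues, went from 48.3 ± 4.55 CPM through 54.7 ± 3.98 to 37.4 ± 2.84 CPM, a step of −0.36 ± 0.12 that was −0.02 ± 0.12 with TMM scaling. Relative to *Phf10*, *Dpf1* gained 2.82 ± 0.16 and *Dpf3* 2.83 ± 0.27 on the log2 scale within embryos.

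*Ss18*, the progenitor subunit of its position, ranged from 105 to 120 CPM in radial glia-like nuclei (median 114), from 65.1 to 80.1 in intermediate progenitor-like nuclei (median 73.9) and from 29.4 to 42.1 in excitatory neuron-like nuclei (median 34.1). Each class was below the preceding class in all 9 embryos without overlap. The step from radial glia-like to excitatory neuron-like nuclei was −1.70 ± 0.16, a 3.24-fold fall, and −1.36 ± 0.16 with TMM scaling. *Ss18l1*, the neuronal counterpart (chromosome 2), rose from 22.1 ± 2.52 to 40.0 ± 3.16 CPM, a step of 0.83 ± 0.13 (1.17 ± 0.13 with TMM scaling), and 0.66 ± 0.20 of that was in place in intermediate progenitor-like nuclei. Their ratio moved by 2.53 ± 0.24 on the log2 scale.

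Both ATPase genes were higher in neurons than in radial glia, at different stages. *Smarca2* (chromosome 19) lay between 74.3 and 84.1 CPM in radial glia-like nuclei (median 77.0), between 80.5 and 93.0 in intermediate progenitor-like nuclei (median 88.0) and between 241 and 279 in excitatory neuron-like nuclei (median 256). Intermediate progenitor-like nuclei were slightly above radial glia-like nuclei in 9 of 9 embryos with overlapping ranges, and the neuron-like values were far above both, with a step of 1.72 ± 0.10. *Smarca4* (chromosome 9) went from 216 ± 10.9 CPM to 318 ± 13.7 in intermediate progenitor-like nuclei and 349 ± 9.66 in excitatory neuron-like nuclei, a step of 0.69 ± 0.09 of which 0.55 ± 0.07 came before the neuron-like stage. *Smarca2* thus gained 1.03 ± 0.12 relative to *Smarca4*, a 2.05-fold change in their ratio, while the *Smarca4* level did not decline between these classes. Within the ordered lineage *Smarca4* was lower in the last bins than midway, as given below.

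**Figure D2:**
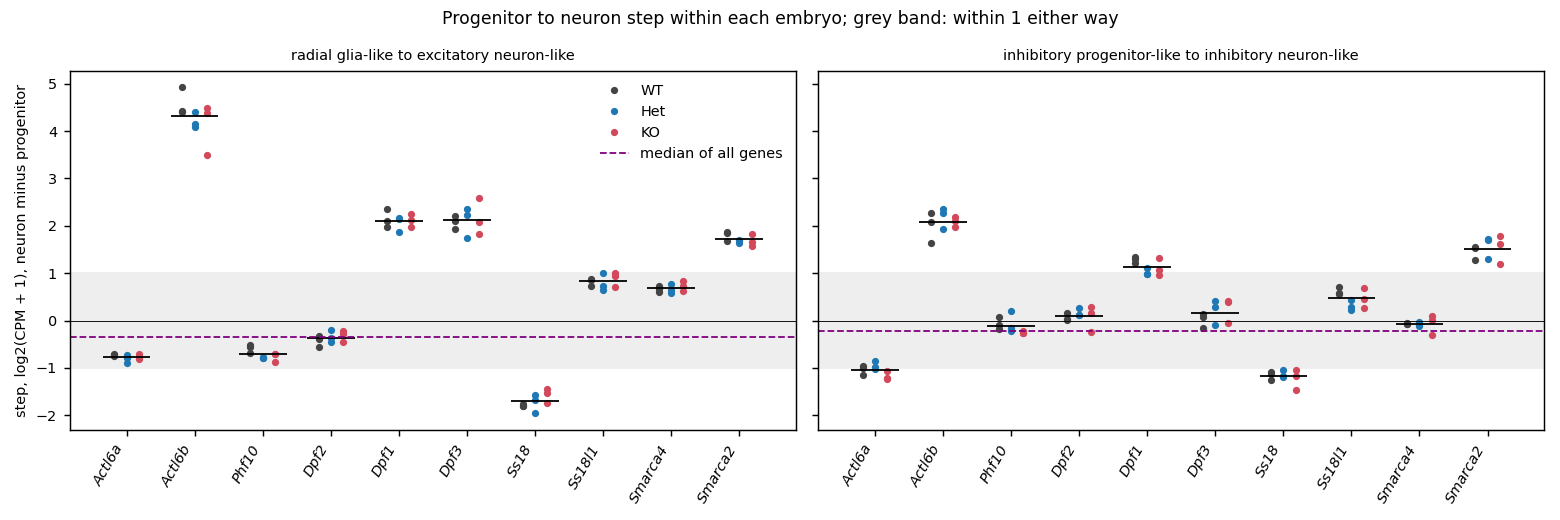
Step from progenitor-like to neuron-like nuclei (difference of log2(CPM + 1)) within each of the 9 embryos, coloured by genotype, with a bar for the mean; the left panel is the excitatory and the right panel the inhibitory lineage. The grey band marks steps within 1 of 0 and the dashed line the median of all genes compared (−0.35 and −0.22). *Actl6b*, *Dpf1*, *Dpf3* and *Smarca2* lie above the band and *Ss18* below it on the left, and *Dpf3* lies near 0 on the right.

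In the inhibitory lineage the actin-related and SS18-type genes and *Smarca2* stepped in the same directions, while *Smarca4* and *Dpf3* stayed near their progenitor levels. From inhibitory progenitor-like to inhibitory neuron-like nuclei, *Actl6b* rose by 2.09 ± 0.22 and *Smarca2* by 1.52 ± 0.21, both beyond 1 in all 9 embryos (8.25% of 12240 genes rose so), and *Ss18* fell by 1.17 ± 0.13, also beyond 1 in all 9 (8.94% fell so). *Dpf1* rose by 1.14 ± 0.15 with a lowest value of 0.96, and *Actl6a* changed by −1.05 ± 0.12 with a range of −1.23 to −0.86, so neither passed in every embryo. TMM scaling moved the median of all genes by 0.30 in this lineage, which put *Dpf1* past the limit at 1.45 and *Ss18* short of it at −0.86.

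*Dpf3* stood at 65.4 ± 5.60 CPM in inhibitory progenitor-like and 73.6 ± 10.3 CPM in inhibitory neuron-like nuclei, a step of 0.16 ± 0.23 that was positive in 6 of 9 embryos. *Smarca4* changed by −0.07 ± 0.11 and *Phf10* by −0.12 ± 0.16, and both signs turned with TMM scaling (0.24 and 0.19). *Dpf2* changed by 0.10 ± 0.16 and *Ss18l1* by 0.47 ± 0.18. The inhibitory progenitor-like class was more advanced in *Actl6b* than radial glia-like nuclei, at 17.0 ± 3.57 against 2.93 ± 1.12 CPM, and in *Dpf1*, at 41.6 ± 4.88 against 16.4 ± 2.46 CPM. No cluster was named as inhibitory before that stage, so the steps of the lineages do not start from matched stages. An unnamed cluster of 10468 nuclei led by *Otx2os1*, *Ano1* and *Otx2* had 3.85 ± 2.02 CPM of *Actl6b* and 21.9 ± 4.08 CPM of *Dpf1*. It had 93.9 ± 3.59 CPM of *Ss18*, and its lineage was not determined.

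Ordering the 6 classes by level placed neurons on the same side for most genes. *Actl6b* was highest in Cajal-Retzius-like nuclei, early-born neurons of the cortical surface, at 84.2 ± 8.00 CPM, and excitatory and inhibitory neuron-like nuclei did not differ beyond their spread, at 74.5 ± 6.78 and 74.5 ± 5.27 CPM. *Actl6a* was lowest in the same 3 classes (28.8 ± 5.14, 32.6 ± 2.36 and 31.6 ± 2.49 CPM, with overlapping ranges). *Dpf1* was higher in inhibitory than in excitatory neuron-like nuclei in 9 of 9 embryos without overlap, at 92.8 ± 6.89 against 73.2 ± 6.80 CPM, and Cajal-Retzius-like nuclei had only 36.2 ± 11.3 CPM. *Smarca2* took the opposite order, at 259 ± 14.7 CPM in excitatory and 153 ± 8.36 CPM in inhibitory neuron-like nuclei, again without overlap in 9 of 9 embryos.

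When the nuclei of the excitatory lineage were ordered by diffusion pseudotime and divided into 10 bins of 10752 nuclei, the genes changed at different places. A gene's midpoint is the share of ordered nuclei at which its level passed the middle between the first and the last bin. Where a level passed the middle more than once, the last passage was taken, which places uneven profiles later. The midpoint of *Ss18* was at 38.8 ± 1.73% and that of *Actl6b* at 44.3 ± 1.08%, with *Ss18* first in 9 of 9 embryos. *Dpf1* followed at 55.9 ± 1.72%, and *Dpf3* at 82.8 ± 1.84% and *Smarca2* at 84.6 ± 1.63% were last, *Dpf1* before *Dpf3* in 9 of 9 embryos. *Actl6a* stood at 52.9 to 58.0 CPM in bins 1 to 4, at 40.6 ± 4.20 in bin 5, at 33.0 ± 2.73 in bin 9 and at 24.6 ± 3.77 in bin 10. Its midpoint varied widely between embryos (51.7 ± 11.1%), and *Ss18l1* passed early with a wide spread (28.3 ± 5.87%). For comparison, the *Myt1l* transcript passed its midpoint at 41.6 ± 0.828%.

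In bin 4, in which 98.0% of nuclei were intermediate progenitor-like, *Actl6b* stood at 12.3 ± 2.84 CPM, and in bin 5 at 44.2 ± 6.06 CPM. Over the same bins *Ss18* went from 87.7 ± 8.63 to 48.5 ± 5.09 CPM. *Smarca2* stood at 97.7 ± 8.17 CPM in bin 5 and at 495 ± 28.2 CPM in bin 10. *Dpf3* first declined, from 37.0 ± 7.01 CPM in bin 1 to 10.9 ± 3.93 CPM in bin 4, and then climbed to 260 ± 26.3 CPM in bin 10, which was its highest bin in 9 of 9 embryos. With nuclei ordered by the first principal component it was highest in bin 9, at 203 ± 22.2 CPM, with 184 ± 23.1 CPM in bin 10. *Smarca4* peaked midway, at 398 ± 11.3 CPM in bin 6, and was down to 290 ± 10.3 CPM in bin 10, while still above its 205 ± 10.3 CPM of bin 1. Levels in bin 10 were close to those of the neuron cluster led by *Hs3st3b1* and *Rgs6* (264 ± 24.0 CPM of *Dpf3*, 495 ± 27.9 of *Smarca2* and 291 ± 9.80 of *Smarca4*). The remaining excitatory neuron-like clusters had 24.2 to 167 CPM of *Dpf3* and 87.9 to 250 CPM of *Smarca2*. A late stage and this neuron type therefore cannot be told apart in bin 10. Median UMIs per nucleus rose from 2230 in bin 6 to 3623 in bin 10, and the part of that depth in the late changes was not tested.

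**Figure D3:**
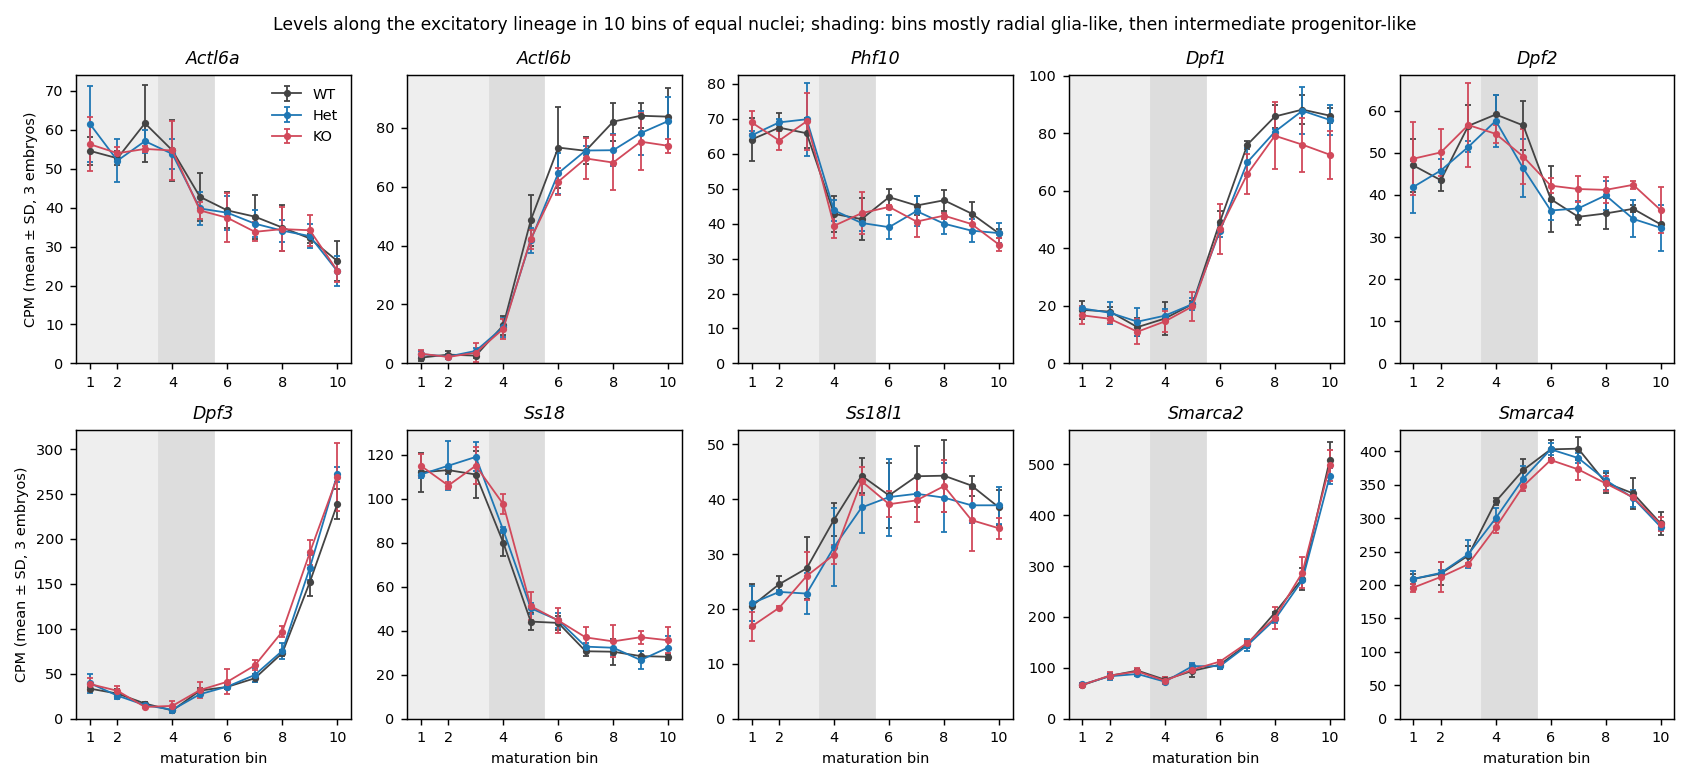
Level (CPM) of the 10 genes in 10 equal bins of ordered excitatory lineage nuclei, with a line for each genotype (mean of 3 embryos, bars of 1 SD) and shading for bins that are mostly radial glia-like (light) and mostly intermediate progenitor-like (dark). *Ss18* drops between bins 3 and 5, *Actl6b* rises from bin 4 on, and *Dpf3* and *Smarca2* climb to 260 and 495 CPM in the last bin over all 9 embryos.

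Clusters inside a class showed how uneven *Dpf3* and *Smarca2* were. Of the 5 excitatory neuron-like clusters, the cluster led by *Adamtsl3* had the lowest *Dpf3* and *Smarca2*, at 24.2 and 87.9 CPM, and the highest *Smarca4* of all 26 clusters, at 399 ± 11.2 CPM. The cluster led by *Hs3st3b1* and *Rgs6* had the highest *Dpf3* of all clusters, at 264 ± 24.0 CPM, with 495 ± 27.9 CPM of *Smarca2*, a level that 1 unnamed cluster led by *Sim1* also reached (498 ± 70.4 CPM). In inhibitory neuron-like clusters *Dpf3* ran from 12.4 ± 3.59 CPM, in the cluster led by *Nxph2* and *Dgkg*, to 209 ± 50.7 CPM, in the cluster led by *Dcdc5* and *Prdm12*. *Actl6b*, by contrast, stayed between 62.6 and 84.8 CPM in all 5 excitatory neuron-like clusters.

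Intermediate progenitors were split by *Actl6b*. The cluster led by *Eomes*, *Gadd45g* and *Neurog2* had 5.09 ± 2.40 CPM, the cycling cluster led by *Sypl2*, *Neil3* and *Cdc25c* 8.54 ± 2.26 CPM, and the cluster led by *Kif26b* and *Mfap4* 33.6 ± 4.86 CPM. The first of these values was near the 4.04 ± 4.19 CPM of microglia and macrophage-like nuclei, and so was not read as expression. The *Kif26b* and *Mfap4* cluster held 13900 of the 22689 nuclei, so the class values rest mostly on it. Its mean over the cycling markers was 51.4 CPM, against 886 in the cycling cluster. It had 758 ± 25.4 CPM of *Myt1l*, against 50.8 ± 12.4 in the *Eomes* cluster and 221 ± 41.0 in the cycling cluster. In the same order, the intermediate progenitor-like clusters had 27.7 ± 6.79, 28.3 ± 3.47 and 40.3 ± 4.16 CPM of *Ss18l1*. They had 271 ± 18.6, 302 ± 27.4 and 339 ± 15.6 CPM of *Smarca4*. *Ss18* was highest in microglia and macrophage-like nuclei, at 131 ± 23.7 CPM, and next in the radial glia-like clusters, at 120 ± 10.9 and 110 ± 3.95 CPM. These radial glia-like clusters differed in *Dpf3*, at 35.3 CPM in the cluster led by *Dct* and 11.0 ± 2.53 CPM in that led by *Mybpc1*.

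**Figure D4:**
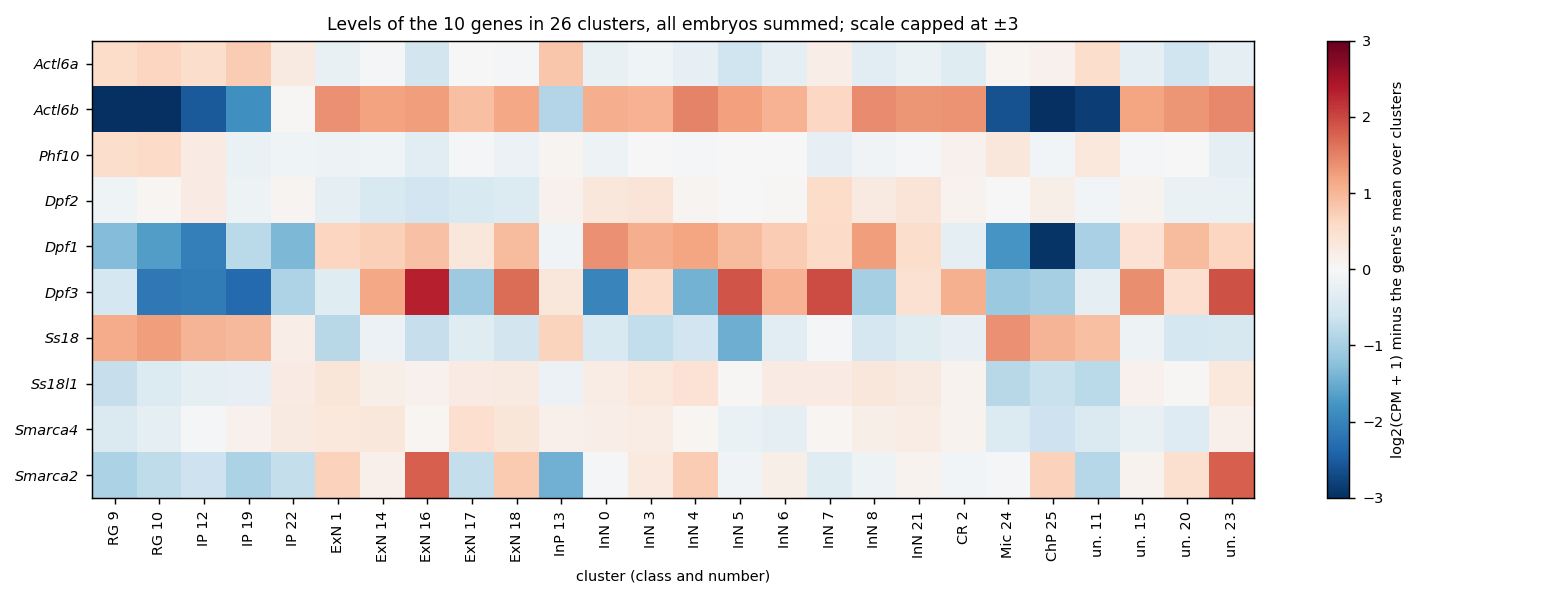
Level of each of the 10 genes in 26 clusters, all embryos summed, as log2(CPM + 1) minus the gene's mean over clusters (red high, blue low, scale capped at 3 either way). Clusters are grouped by class (RG, radial glia-like; IP, excitatory intermediate progenitor-like; ExN and InN, excitatory and inhibitory neuron-like; InP, inhibitory progenitor-like; CR, Cajal-Retzius-like; Mic, microglia and macrophage-like; ChP, choroid plexus and roof plate-like; un., unnamed). *Actl6b* is lower in every progenitor-like cluster than in every neuron-like cluster, and *Dpf3* varies within both neuron classes.

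Over the 25 clusters with at least 500 nuclei, *Actl6b* ran with *Ss18l1* (Pearson r = 0.92 of log2(CPM + 1)) and against *Ss18* (r = −0.93), and *Actl6a* ran with *Ss18* (r = 0.85). *Smarca2* and *Smarca4* were nearly unrelated (r = 0.17). The clusters share animals and libraries and differ in depth, so these values are a description. Among 7195 genes searched, those nearest to *Actl6b* included *Pcdha7* and *Crmp1* (both r = 0.98), and those nearest to *Actl6a* were *Hnrnpu* (r = 0.99), *Zfp131* (r = 0.98) and *Anp32e* (r = 0.97). *Ss18* was nearest to *AI506816*, *Eif2s1* (both r = 0.96) and *Asxl2* (r = 0.95), and *Dpf1* to *B230334C09Rik*, *Dclk1* and *Fam57b* (each r = 0.94). *Smarca2* and *Dpf3* had weaker neighbours, *Bend6*, *Osbp2* and *Lrfn5* for *Smarca2* (r = 0.87, 0.84 and 0.83) and *March4* and *Opcml* among those for *Dpf3* (r = 0.77 and 0.75).

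The rest of the complex was followed over the same steps. Of 21 further subunit genes, including the core scaffold genes *Smarcc1* and *Smarcc2*, the ARID genes and *Pbrm1*, 2 rose past 1 in all 9 embryos from radial glia-like to excitatory neuron-like nuclei and 0 fell past it, beside 10.2% and 16.8% of all genes, with a median step of −0.16 beside −0.35 over all genes. The genes that rose were *Bcl11b* (3.24 ± 0.36) and *Bcl11a* (1.32 ± 0.12), which also serve as DNA-binding factors of cortical projection neurons. Among those with at least 20 CPM, *Bcl7c* had the largest fall, at −0.95 ± 0.11. In the inhibitory lineage 0 of the 21 rose past the limit and 1 fell (*Bcl7a*, −1.16 ± 0.09), beside 8.25% and 8.94% of all genes. *Bcl11a* and *Bcl7a* were named after their values were seen.

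Of the 5 upstream genes of the known scheme, 2 rose past 1 in all 9 embryos from radial glia-like to excitatory neuron-like nuclei and 1 fell past it, beside 10.2% and 16.8% of all genes. *Rest* went from 41.2 CPM in radial glia-like nuclei to 10.8 in intermediate progenitor-like and 16.7 in excitatory neuron-like nuclei, a step of −1.26 ± 0.23 that was −0.95 at its smallest and so did not pass in every embryo. The host genes of miR-124, *Mir124a-1hg* and *Mir124-2hg*, rose by 5.04 ± 0.55 and 2.27 ± 0.20, the former from 8.27 to 285 CPM. As for *Actl6b*, the radial glia-like level of *Mir124a-1hg* cannot be told apart from background RNA, on which its step rests. *Mir9-3hg*, which holds the *Mir9-3* locus, fell by 2.10 ± 0.06 from radial glia-like to excitatory neuron-like nuclei, from 849 to 198 CPM. *C130071C03Rik*, which holds the *Mir9-2* locus, stepped by −0.36 ± 0.05, from 1171 to 911 CPM, beside the median of −0.35 over all genes, and was named after its values were seen. A host transcript in nuclei is not the mature microRNA, whose level was not measured.

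Of the 10 subunit genes, 0 were called between KO and WT in any of the 6 classes by edgeR's quasi-likelihood test with Benjamini-Hochberg adjustment over all genes of a class, at an adjusted p below 0.05 and a log2 fold change beyond 0.2. All 10 passed the filter on low counts in each class. Over all genes, the share called between KO and WT was 0% in radial glia-like, 0% in intermediate progenitor-like, 1.51% in excitatory neuron-like, 0% in inhibitory progenitor-like, 0.0425% in inhibitory neuron-like and 0.217% in Cajal-Retzius-like nuclei, so 0 of 10 is near the background. At an unadjusted p below 0.05, 11 of the 60 tests of subunit genes passed (18.3%), 9 of them higher in KO, beside 6.69% of all tests, and DESeq2 called 0 as well. Between Het and WT, 0 were called (0% of all genes in each class) and 0 of 60 passed at an unadjusted p below 0.05 (2.69% of all tests did), and between KO and Het 0 were called (0.00524% of genes in excitatory neuron-like and 0.0570% in Cajal-Retzius-like nuclei, 0% elsewhere) and 2 of 60 passed unadjusted (3.33%, beside 3.58% of all tests).

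**Figure D5:**
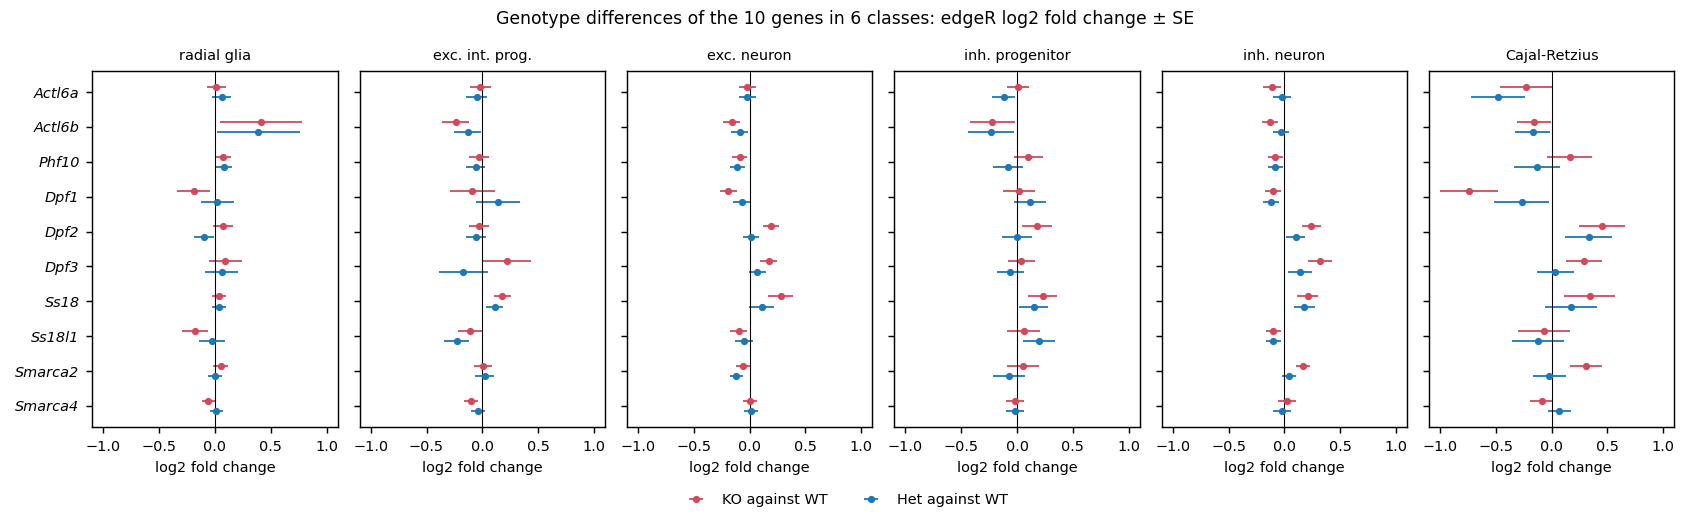
Log2 fold change of the 10 genes against WT in 6 classes by edgeR, for KO (red) and Het (blue), with bars of 1 standard error. The KO points of *Ss18* and *Dpf2* lie right of 0 in excitatory and inhibitory neuron-like nuclei (0.28 and 0.19, 0.21 and 0.24) with adjusted p above the threshold, and *Dpf1* in Cajal-Retzius-like nuclei lies farthest left at −0.74.

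*Ss18* had the largest difference in excitatory neuron-like nuclei. WT 1 to 3 had 34.1, 31.5 and 29.4 CPM, Het 1 to 3 34.8, 36.5 and 30.0 CPM, and KO 1 to 3 39.0, 42.1 and 32.5 CPM. The KO values were on the high side, with KO 3 inside the range of WT. The log2 fold change of KO against WT was 0.28 (SE 0.112, edgeR adjusted p = 0.274), and it ranged from 0.18 without KO 2 to 0.40 without KO 3. With the replicate number as a block it was 0.28 again, with an SE of 0.0646 and an edgeR adjusted p of 0.00979, which made it a call, in a fit that called 7.00% of all genes in place of 1.51%. KO was above WT by 0.19, 0.41 and 0.14 at numbers 1 to 3. It was the only call among the 10 genes with the block in any class or contrast. The block called, of all genes between KO and WT, 0.00608% in radial glia-like, 0.0661% in intermediate progenitor-like, 0.925% in inhibitory neuron-like and 1.05% in Cajal-Retzius-like nuclei. Between Het and WT it called 0.0315% in excitatory neuron-like, 0.00793% in inhibitory progenitor-like and 0.00532% in inhibitory neuron-like nuclei, and between KO and Het 0.00661% in intermediate progenitor-like, 1.33% in excitatory neuron-like nuclei, 0.0585% in those named inhibitory neuron-like and 0.319% in Cajal-Retzius-like nuclei. That call was lost without WT 2 (log2 fold change 0.21, edgeR adjusted p = 0.137), without KO 2 (0.22, adjusted p = 0.111) and in run 1 alone (0.33, adjusted p = 0.115), alternatives chosen after seeing the data, and it held in run 2 alone (0.27, adjusted p = 0.0280).

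Summed markers of the excitatory progenitors overlapped between KO and WT: the level of the 9 radial glia markers in excitatory neuron-like nuclei was 943 to 1034 CPM in WT and 976 to 1017 CPM in KO, that of the 7 intermediate progenitor markers 102 to 112 and 94.9 to 108 CPM, and that of the 6 cycling markers 122 to 169 and 108 to 142 CPM. The 7 inhibitory progenitor markers did not overlap, at 32.5 to 38.5 CPM in WT and 27.5 to 31.8 CPM in KO, and their part in the result was not tested. At numbers 1 to 3, KO was below WT for the intermediate progenitor markers (94.9, 106 and 108 against 102, 110 and 112 CPM). The cycling markers did the same (142, 108 and 115 against 169, 140 and 122 CPM), and the radial glia markers went both ways. The part of these differences in the *Ss18* result was not tested. Within bins of the ordered lineage, *Ss18* was at 37.0 ± 2.90 CPM in KO and 28.4 ± 2.50 CPM in WT in bin 9 (n = 3 each), and at 44.6 ± 5.83 and 43.5 ± 3.34 CPM in bin 6. With nuclei ordered by the first principal component the bin 9 values were 34.2 ± 1.82 and 30.7 ± 3.55 CPM. In that order they were 37.9 ± 7.55 and 27.7 ± 1.80 CPM in bin 8, and 34.2 ± 5.54 and 26.7 ± 3.05 CPM in bin 10. In intermediate progenitor-like nuclei every KO value of *Ss18* was above every WT value (76.4 to 80.1 against 65.1 to 71.8 CPM; log2 fold change 0.18, edgeR adjusted p = 0.992), and every KO value of *Smarca4* was below every WT value (301 to 311 against 323 to 343 CPM; −0.10, adjusted p = 0.992). In radial glia-like nuclei the genotypes overlapped for *Ss18* (0.04). With 3 embryos a side, genes without a genotype difference can also separate. The share of all genes without overlap was not counted, so separations here and below are not read as a result about the subunits.

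The remaining subunits had smaller log2 fold changes in excitatory neuron-like nuclei. *Dpf1* had 79.8, 74.3 and 80.3 CPM in WT 1 to 3, 77.2, 73.8 and 70.7 CPM in Het and 71.4, 57.4 and 74.3 CPM in KO, a log2 fold change of −0.19 (SE 0.0788, edgeR adjusted p = 0.319). KO 2 was the lowest, and the remaining KO values were at or just under the lowest WT value. Without KO 2 the log2 fold change was −0.09. *Actl6b* had 87.9, 76.2 and 74.2 CPM in WT, 80.3, 72.1 and 69.9 CPM in Het and 71.4, 63.8 and 74.9 CPM in KO, with overlap (−0.16, SE 0.0755, adjusted p = 0.390). For *Dpf2* the KO values (41.1, 38.1 and 42.0 CPM) were all above the WT values (35.7, 35.8 and 36.6 CPM), at 0.19 (SE 0.0718, adjusted p = 0.258). For *Phf10* they were all below (40.9, 38.3 and 39.9 against 45.4, 41.0 and 42.8 CPM; −0.09, adjusted p = 0.594). *Dpf3* overlapped, at 126, 122 and 153 CPM in KO and 125, 124 and 114 CPM in WT (0.17, SE 0.0793, adjusted p = 0.368). Within bins of the ordered lineage *Dpf3* was at 96.9 ± 5.79 CPM in KO and 73.0 ± 3.06 CPM in WT in bin 8, and at 269 ± 37.7 and 239 ± 16.5 CPM in bin 10 (n = 3 each, not tested). With nuclei ordered by the first principal component the bin 8 values were 133 ± 13.8 and 122 ± 18.6 CPM, within their spread. In that order they were 209 ± 27.1 and 195 ± 25.5 CPM in bin 9, and 202 ± 21.7 and 163 ± 21.2 CPM in bin 10. *Ss18l1* overlapped too (−0.10, adjusted p = 0.652). *Smarca4*, *Smarca2* and *Actl6a* were within 0.06 of 0.

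In inhibitory neuron-like nuclei the largest differences were those of *Dpf3* (0.32, SE 0.105, edgeR adjusted p = 0.651) and *Dpf2* (0.24, SE 0.0841, adjusted p = 0.682). *Dpf3* had 66.0, 63.2 and 70.6 CPM in WT, 74.6, 65.6 and 77.1 CPM in Het and 95.6, 67.6 and 82.1 CPM in KO, KO 2 lying inside the WT range, and the log2 fold change was 0.19 without KO 1. In this class KO 1 also had the highest summed level of the 8 excitatory neuron markers, 146 CPM against 55.6 to 110 CPM in the other embryos, and of the 7 excitatory intermediate progenitor markers, 61.8 against 38.6 to 55.5 CPM, and their part in the result was not tested. The KO and WT values did not overlap for *Dpf2*, *Ss18* (36.8, 38.4 and 36.0 against 35.0, 32.3 and 30.9 CPM; 0.21, adjusted p = 0.782) and *Smarca2* (163, 162 and 163 against 143, 147 and 153 CPM; 0.17, adjusted p = 0.722), with KO above, or for *Phf10*, with KO below (41.3, 43.4 and 42.2 against 47.5, 43.6 and 46.1 CPM; −0.08, adjusted p = 0.919). Here too, the share of all genes without overlap was not counted. In Cajal-Retzius-like nuclei, of which an embryo had as few as 156, *Dpf1* had a log2 fold change of −0.74 (SE 0.259, adjusted p = 0.329). *Dpf2* (0.45, SE 0.203, adjusted p = 0.494) and *Smarca2* (0.31, SE 0.145, adjusted p = 0.528) had log2 fold changes of the opposite sign. KO and WT embryos overlapped for both and for *Dpf1*. The *Dpf1* value ranged from −0.98 to −0.5 when an embryo was left out. The *Dpf2* value was 0.72 without WT 1 and 0.29 without WT 3, and the *Smarca2* value was 0.50 without WT 2 and 0.21 without WT 3.

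Whether the progenitor to neuron step itself differed by genotype was tested as an interaction of class and genotype within embryos. Of the 10 genes, 0 were called for KO against WT in the excitatory lineage (0.395% of 19263 genes were) and 0 in the inhibitory lineage (0.0173%), and 0 for Het against WT (0% in both). At an unadjusted p below 0.05 there were 2 of the 40 tests, *Ss18* in KO (0.24, SE 0.107, edgeR adjusted p = 0.516) and *Phf10* in Het (−0.17, adjusted p = 1), both in the excitatory lineage, and DESeq2 called 0. Over all genes, 1743 of 19263 passed unadjusted for KO and 728 for Het in the excitatory lineage, and 957 and 582 of 17330 in the inhibitory lineage, so that 2 of 40 is near the background. The *Ss18* step was −1.79 ± 0.04 in WT, −1.74 ± 0.20 in Het and −1.57 ± 0.15 in KO (n = 3 each). For *Actl6b* the interaction was −0.55 (SE 0.322, edgeR adjusted p = 0.697), with 215 UMIs of the gene in radial glia-like nuclei over all embryos.

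Among the other BAF genes, 0 of 21 were called between KO and WT in any class by edgeR, and 8 of 125 tests passed at an unadjusted p below 0.05 (6.40%, beside 6.69% of all tests). Of the 5 upstream genes, *Rest* was higher in KO excitatory neuron-like nuclei: 18.7, 18.1 and 21.3 CPM against 15.2, 13.9 and 16.0 CPM in WT, without overlap, and 16.1, 15.0 and 15.9 CPM in Het (KO against WT 0.39, SE 0.0828, edgeR adjusted p = 0.0326). That call was lost without any of 7 embryos: the log2 fold change stayed between 0.34 and 0.44 when 1 embryo was left out, but the edgeR adjusted p was 0.106, 0.127 and 0.0709 without WT 1, 2 and 3, 0.0668, 0.0759 and 0.0778 without KO 1, 2 and 3, and 0.0502 without Het 3, and it was 0.715 in run 1 alone and 0.0598 in run 2 alone. The *Myt1l* transcript was also higher there, at 2684 ± 163 CPM in KO, 2386 ± 127 in Het and 2102 ± 140 in WT (0.37, SE 0.0807, adjusted p = 0.0377, and 0.0552 to 0.178 without WT 1, WT 3, Het 3, KO 1 or KO 2), so the transcript level does not check the labels as a loss of RNA would. The *Myt1l* log2 fold change stayed between 0.31 and 0.44 when 1 embryo was left out. With the replicate block, *Smarcd2* (0.32, edgeR adjusted p = 0.0435), *Smarcd3* (0.21, adjusted p = 0.0343) and *Actb* (−0.20, adjusted p = 0.0168) were called as well in excitatory neuron-like nuclei, and *Actb* in intermediate progenitor-like nuclei (−0.32, adjusted p = 0.0415). That fit called 7.00% and 0.0661% of all genes in these classes, and *Actb* in the former was at the fold limit. These blocked calls were not refitted without single embryos or in single runs.

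RefSeq windows from 250 bases before to 50 after the start were at hand for 9 of the 10 genes. The letters AAGTT, in the core of the motif that MYT1 family proteins bind, were found on either strand in 1 of the 9 (*Dpf2*), against 39.3% of 32851 windows. CAGCTG, an E-box, was in 1 (*Phf10*) against 16.3%, and CAGATG, another E-box, in 0 against 17.2%. The 9 windows held 55.3 to 87.0% G and C bases, each above the median of 52.7% over all windows. The shares over all windows were not matched for this, so the counts are not read as low or high. These counts describe letters in short windows and say nothing of binding.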

How the data were processed

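Estimated counts per gene and nuclear barcode were deposited by the authors for 18 libraries, 9 embryos in 2 runs. They are UMI counts in which reads shared by several genes were divided, so that 6.70 to 8.71% of the values were not whole, and they are not normalised. The submitters' processing notes name the genome build mm10. Every column of values was mapped to a library (0 left unmapped), and library titles gave embryo and genotype. The 10 genes and all gene lists were chosen with earlier results of these data known.

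Nuclei were kept if they held 800 to 6000 UMIs and 300 to 3000 genes, with no more than 1% of UMIs mitochondrial and log10 genes over log10 UMIs at 0.9 or above, and the 5% with the highest doublet scores in each library were removed. Clusters were made in scanpy 1.11.5 from 3000 variable genes, 50 principal components and 20 neighbours (Leiden resolution 1). They were named from marker lists by a naming rule set after the data were seen. UMIs were summed per embryo and class, and sums were rounded to whole numbers for the count tests. Sums held 586613 to 23987473 UMIs.

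Levels are CPM of those sums, and steps are differences of log2(CPM + 1) within an embryo, set against genes with at least 5 CPM. Genotypes were compared within each class by edgeR 4.0.16 (R 4.3.3, quasi-likelihood test, TMM, all 9 embryos), with Benjamini-Hochberg adjustment over all genes tested, and DESeq2 1.42.0 was run as an alternative. The fits were also run on simulated counts with known changes in well-counted genes. Those counts had a fixed spread and no link between same-numbered embryos. They therefore do not bear on genes with low counts or on the choice of the block. All 10 genes were described. Of the other BAF and upstream genes, those called in a genotype comparison were named, with the 3 largest rises and the 3 largest falls among those with at least 20 CPM, and for genes past the limit and *Actl6a* the 3 genes most alike over clusters, some of which are not reported here.

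Replicate numbers come from the titles, which do not say what they mark. Embryos were drawn from 3 litters, and no label ties an embryo to its litter. Deviations of same-numbered embryos from their group means correlated at over 0.1 in 9 of 9 pairs in radial glia-like (0.14 to 0.35), intermediate progenitor-like (0.12 to 0.21), excitatory neuron-like (0.10 to 0.27) and inhibitory neuron-like nuclei (0.12 to 0.31), in 6 of 9 in inhibitory progenitor-like and in 4 of 9 in Cajal-Retzius-like nuclei, against −0.26 to 0.08 for different numbers. Deviations cancel within a genotype, so positive values for same numbers go with negative values for different numbers by construction. The pairs also share embryos and are not independent. Because of the same-number values, the block was run as an alternative fit.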

Additional observations from a re-analysis of the deposited data

How the results depend on the processing

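The count of subunit genes called between KO and WT was 0 with DESeq2, with relative log expression size factors, without a filter on low counts, with only the 6 embryos compared, in either run alone, without upper limits on nuclei, without doublet removal, and with any embryo left out (0 to 0). With the replicate block it was 1, *Ss18* in excitatory neuron-like nuclei, and the pairing changed no other call among the 10 genes. The number of genes past the step limit was 5 in the excitatory and 3 in the inhibitory lineage, and leaving out any embryo gave 5 to 5 and 3 to 3. At Leiden resolution 0.5 the excitatory count was 5, and no cluster was named inhibitory progenitor-like, so the inhibitory steps could not be computed there and rest on 1 resolution. With TMM scaling 13.4% of all genes rose and 11.9% fell past the limit in the excitatory lineage, in place of 10.2 and 16.8%, and 11.1% and 6.38% in the inhibitory lineage, in place of 8.25 and 8.94%.

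Midpoints of *Dpf3* and *Smarca2* and the bin in which *Dpf3* was highest depended on the ordering. With 5 bins the midpoints were 77.7% for *Dpf3*, 75.3% for *Smarca2* and 40.7% for *Ss18*, and with nuclei ordered by the first principal component 72.9% for *Dpf3* and 78.7% for *Smarca2*, and the cause was not tested. TMM scaling turned the sign of the *Phf10* and *Smarca4* steps in the inhibitory lineage and brought the *Dpf2* step of the excitatory lineage to −0.02.

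Over all genes of excitatory neuron-like nuclei the number called between KO and WT was 288, against 1334 with the replicate block, 828 without a filter on low counts, 408 with DESeq2, 0 in run 1 alone and 217 in run 2 alone, and 86 to 387 with 1 embryo left out. Cajal-Retzius-like nuclei had the fewest UMIs of the 6 classes, 586613 to 1038713 UMIs per embryo.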
